A study of Mus musculus with 36 samples.

Results

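Whole hearts of outbred OF1 mice at 2 adult ages were compared: 3 arrays of young adult hearts and 3 arrays of old adult hearts, 6 of the 36 arrays of a series whose other 30 arrays follow embryonic hearts from E10.5 to E19.5. The members are every array labelled young or old adult. The mice were untreated, and no allele or agent distinguished the groups. Young adults were 10 weeks old. The sample labels give old adults as 14 months and the study's methods as 10 months, and no computation used the age. In each group 1 array came from female hearts, 1 from male hearts and 1 from a mix of both, so that spread between animals of 1 age cannot be told apart from sex. Affymetrix mouse genome arrays were used, on which a probe set is a handful of short probes designed against the same transcript. Values are log2 intensities from robust multi-array average (RMA), and a difference of 1 is a factor of 2. The number of arrays limits the precision, and the depth of an array has no count behind it. Below, the 3 values of a group always stand in the order female, male, mixed.

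The extraction protocol in the labels speaks of liver, whereas the tissue label and the methods speak of heart. The ventricular light chains *Myl2* and *Myl3* averaged 13.27 and 12.58 in young arrays and 13.30 and 12.67 in old arrays, near the top of the scale. Of 7 liver genes on the array, 2 passed a mean of 5 in either group, at most 5.86, and *Alb* was not among them. None of 7 thymus genes and 1 of 6 lung genes passed it. *Xist*, the RNA that coats the inactive X chromosome, measured 9.76, 2.22 and 9.71 in young and 10.64, 2.03 and 8.96 in old arrays, as the sex labels require. The array reads tissue RNA in bulk, in which fewer cells of a type and less RNA per cell cannot be told apart.

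The adult heart consists by mass mainly of cardiomyocytes, which no longer divide, and by cell number largely of endothelial cells, fibroblasts, mural cells and leukocytes. Cardiomyocytes live on fatty acid oxidation, fibroblasts lay down collagen, and resident immune cells increase in many tissues with age. Ageing of the rodent heart is known for slow stiffening, a drift toward fetal-type contractile genes and low-grade inflammation, in which interferons and antigen presentation take part. Some transcripts, the immediate early genes, react to stress within minutes and can also record the handling of an animal or a tissue before RNA is fixed.

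A gene was read from its probe set with the highest mean over the 6 arrays and counted as expressed above a mean of 5 in at least 1 group, which held for 9837 genes. A gene above 5 in only 1 group thus entered through the group in which it was higher. A difference was called consistent when all 3 old arrays lay on the same side of all 3 young arrays and the means differed by at least 0.5 log2. By this description 1063 genes (10.8% of those expressed) were higher and 380 (3.86%) were lower in old hearts, 153 and 88 of them by at least 1 log2. Among the genes, 1830 (18.6%) higher and 754 (7.66%) lower had no overlap between the groups at any size, and among 16705 expressed probe sets 1870 (11.2%) were consistently higher and 727 (4.35%) lower. At the limit, *Map4k4* with 0.5006 was just inside and *Brpf3* with 0.4999 just outside. The median difference of all expressed genes was 0.14 log2, and gene list medians below are to be read against this shift. Centring each array on its expressed probe sets removed it (median -0.03) and turned the balance to 486 higher and 767 lower, that is from 73.7% to 38.8% higher among consistent genes. Renewed quantile normalization gave 584 and 657. After centring the list medians kept their sign for immediate early (0.82), class I (0.88), interferon (0.40), endothelial (0.39) and collagen genes (-0.50), whereas 10 list medians passed from above to below 0, those of calcium handling, channels, ketone and branched chain amino acid use, respiratory chain, p53 and senescence, proliferation, cytosolic ribosomal, longevity, ventricular and atrial genes (at most 0.15 before and at least -0.15 after centring).

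Differences were tested with limma in 2 ways, with Benjamini-Hochberg adjustment over all probe sets of the array. The first fit used the 6 adult arrays with the sex label as a block and had 2 residual degrees of freedom. It called 5 probe sets at an adjusted p under 0.05, 3 higher (0.00665%) and 2 lower (0.00443%), while 6163 had an unadjusted p under 0.05. The second, following the study's methods, fitted 12 stage means to all 36 arrays and called 3138 probe sets, 1726 higher (3.83%) and 1412 lower (3.13%). Among expressed genes it called 774 higher (7.87%) and 341 lower (3.47%). "Rose" and "fell" below refer to this fit. It takes its spread largely from embryonic arrays, and adult arrays varied more: with a variance factor, adult arrays received a weight of 0.614 and embryonic arrays 1.103, and 572 probe sets were called, among them 163 expressed genes higher (1.66%) and 76 lower (0.773%). The number of calls in this stricter fit is given below for many of the lists. Counts of list members below are to be read against these shares of all expressed genes. Without the young male, young mixed or old male array, the second fit called 1999, 2062 and 1889 probe sets.

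Among annotated genes *Cyfip2* rose in both fits. It encodes a subunit of the WAVE complex that starts actin branching, and it measured 4.5, 4.12 and 5.90 in young and 8.18, 8.45 and 8.24 in old hearts. The old arrays lay close together and above every young array. The difference was 3.45 log2 or 11.0-fold (SE 0.33, adjusted p 0.030 in limma on the 6 arrays), and another *Cyfip2* probe set gave 3.21 (SE 0.31, adjusted p 0.030). Probe set 1435792_at, which carries no gene in the array's annotation, went from 2.10, 2.86 and 3.05 to 7.24, 6.03 and 7.30 (4.19 log2, SE 0.33, adjusted p 0.020). It was the probe set with the lowest adjusted p in the 6-array fit.

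Among annotated genes *Chad* fell in both fits. It encodes chondroadherin, a cartilage matrix protein that binds collagen and integrins, and it measured 5.39, 4.72 and 5.31 in young and 3.56, 2.83 and 2.85 in old hearts, a fall of 4.18-fold (-2.06 log2, SE 0.21, adjusted p 0.036 in limma on the 6 arrays). A second probe set without a gene, 1456319_at, fell from 7.91, 7.60 and 7.66 to 6.07, 5.37 and 5.10 (-2.21 log2, SE 0.21, adjusted p 0.030). These were all the probe sets called on the 6 arrays alone. At the limits of the study's methods (adjusted p under 1e-05, more than 2 log2, a stage mean above 5) the all-array fit left 3 probe sets, namely 1435792_at, *Chad* and *Cpeb1*. *Cpeb1* binds messenger RNA tails and controls their translation, and it rose from 3.90, 3.45 and 3.86 to 5.87, 6.91 and 5.00 (2.19 log2, SE 0.25, adjusted p 4.8e-06 in the all-array fit).

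Other genes with large consistent differences were higher in some old arrays than in others. *Cytip*, a cytohesin-binding protein of leukocytes, went from 3.38, 2.96 and 3.84 to 5.87, 4.44 and 6.77 (2.3 log2, adjusted p 3e-05). *Btnl9*, a butyrophilin found in endothelium, went from 7.47, 7.27 and 6.56 to 8.35, 9.09 and 10.81 (2.31 log2, adjusted p 0.00018). *Wt1*, the Wilms tumour factor of epicardium and of vessels, went from 4.12, 3.47 and 3.77 to 4.80, 5.69 and 6.39 (1.84 log2, adjusted p 8.2e-05). In all of them the groups did not overlap, and the old mixed array was the highest. Among the genes that fell, *Ccdc141* measured 6.63, 8.33 and 8.57 in young and 5.85, 5.46 and 5.25 in old hearts (-2.33 log2, SE 0.33, adjusted p 6.3e-05). Its 5 other expressed probe sets differed by -1.66, -1.49, -0.35, 0.31 and 0.58, and without the old mixed array a probe set with the opposite sign was consistently higher. *Vegfa*, the main endothelial growth factor, fell from 7.03, 9.29 and 8.75 to 5.88, 5.89 and 6.34 (-2.32 log2, SE 0.37, adjusted p 0.00027), and its other expressed probe set differed by -0.12. For both, the young female array lay closest to the old arrays.

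**Figure D1:**
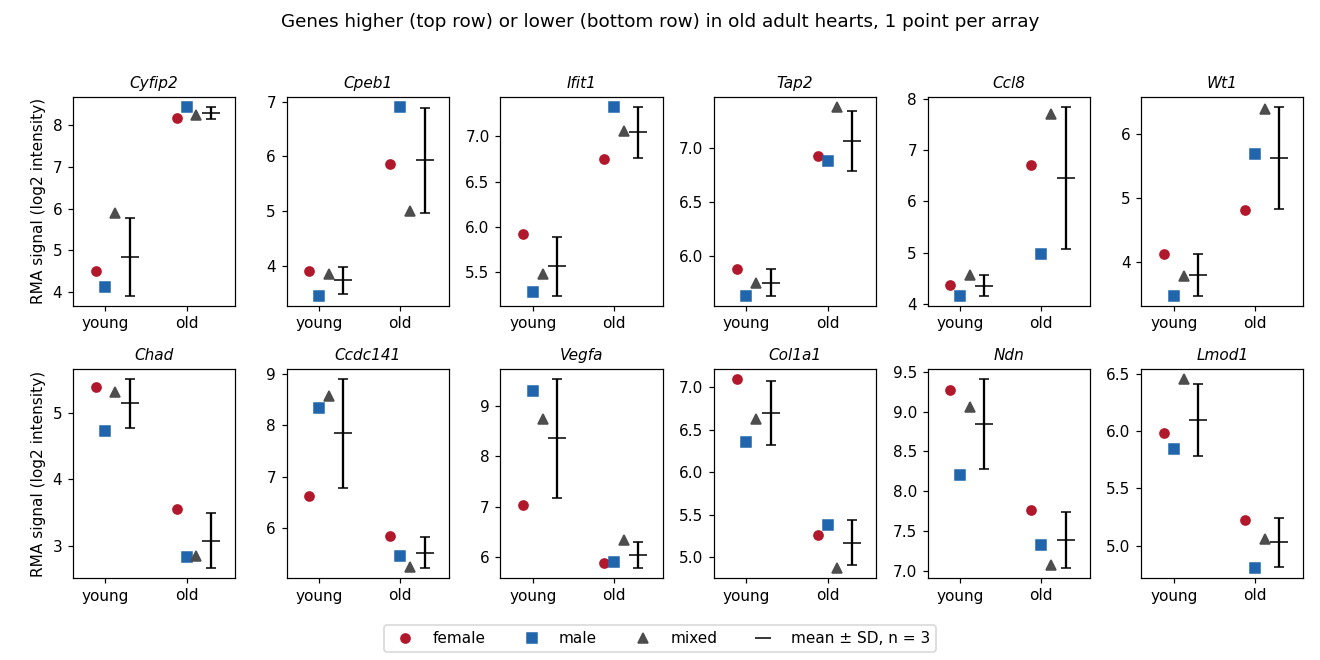
RMA signal (log2 intensity, y axis; each panel has its own scale and does not start at 0) of 12 genes in young and old adult hearts. Points are single arrays (circle female, square male, triangle mixed), and the bar beside them is the mean ± SD of 3 arrays; in each panel all 3 old arrays lie on the same side of all 3 young arrays, with *Cyfip2* at 8.18 to 8.45 in old against 4.12 to 5.90 in young hearts.

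Genes of the interferon response and of antigen presentation were higher in old hearts, and no member of either list fell. Interferons signal through STAT and IRF factors to genes whose products restrict viruses, and they also raise the class I molecules that show peptides to T cells together with the transporters and proteasome subunits that supply those peptides. Of 29 expressed interferon genes, 8 were consistently higher and 0 lower. In the all-array fit 10 rose and 0 fell (0 also at an unadjusted p under 0.05), 6 of them in the stricter fit, and the median difference was 0.56 log2. Of all expressed genes 10.8% were consistently higher, 7.87% rose and 1.66% rose in the stricter fit. Of 9 expressed class I genes all had a higher mean in old hearts, 4 were consistently higher, 6 rose in the all-array fit and 4 in the stricter one, with a median of 1.05. *Ifi47*, *Oasl2*, *Usp18* and *Lgals3bp* among the 10 interferon genes that rose and *Nlrc5* among the 6 class I genes had a young mean under 5, so that they counted as expressed only because they were high in old hearts. Without the old mixed array 6 interferon and 3 class I genes rose, with medians of 0.33 and 0.74, when 5.89% of expressed genes rose.

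*Ifit1*, an effector that binds foreign RNA ends, measured 5.92, 5.28 and 5.48 in young and 6.75, 7.32 and 7.06 in old hearts. *Ifit2* of the same family measured 6.18, 6.39 and 6.53 in young and 7.32, 7.33 and 7.59 in old hearts. All 3 old arrays of both genes lay above all young arrays, by 1.48 log2 in mean for *Ifit1* (SE 0.17, adjusted p 4.8e-06) and 1.04 for *Ifit2* (SE 0.18, adjusted p 0.00079). The guanylate binding protein *Gbp6* went from 6.19, 6.84 and 6.55 to 8.17, 7.81 and 8.40 (1.6 log2, adjusted p 0.0001). *Lgals3bp*, a secreted galectin ligand, rose by 1.33 log2 and *Oasl2*, of the oligoadenylate synthetase family, by 1.19. The immunity-related GTPase *Ifi47* rose by 1.18, yet its old male array with 4.94 barely exceeded the young mixed array with 4.91.

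Class I presentation rose together with its transactivator. *Nlrc5*, which switches on class I genes, measured 3.25, 4.47 and 4.98 in young and 5.48, 5.51 and 7.19 in old hearts (1.83 log2, SE 0.32, adjusted p 0.00082). *Tap2*, a subunit of the peptide transporter, measured 5.88, 5.63 and 5.75 in young and 6.92, 6.88 and 7.38 in old hearts (1.3 log2, SE 0.17, adjusted p 2.2e-05). The heavy chain *H2-K1* went from 9.58, 9.71 and 10.21 to 11.03, 10.57 and 11.61 (1.24 log2, adjusted p 0.00063). The immunoproteasome subunits *Psmb8* and *Psmb9* rose by 1.05 and 1.03, but for both the young mixed array overlapped with the old arrays. In this list the old male array was the lowest of the old arrays, at a median of 0.49 above the young mean, against 1.13 in the female and 1.63 in the mixed array.

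The promoters of 3 interferon genes that rose are shown because they hold GAAA and, after a gap of any 2 bases, GAAA again, the core of the element through which interferon-activated factors bind. RefSeq promoters (build GRCm38.p6, 250 bases before to 50 after a transcript start) were found for 22 of the 29 expressed interferon genes, and 10 of these (45.5%) held the motif on either strand, against 3.99% of all 27025 genes with a promoter. Among the 8 interferon genes with a promoter that rose or were consistent, 3 held it (37.5%). The share among the members that rose was thus near that of the whole list. Capitals mark the motif, which reads as a pair of TTTC on the opposite strand, and overlapping matches run together. *Ifit1* (chr19:34640639-34640938, + strand) held it 104 and 85 bases before its start. *Bst2* (chr8:71537423-71537722, - strand) encodes tetherin, which rose by 0.65 log2 (adjusted p 0.031), and *Gbp2* (chr3:142620413-142620712, + strand), another guanylate binding protein, rose by 0.74 (adjusted p 0.0096).
Ifit1: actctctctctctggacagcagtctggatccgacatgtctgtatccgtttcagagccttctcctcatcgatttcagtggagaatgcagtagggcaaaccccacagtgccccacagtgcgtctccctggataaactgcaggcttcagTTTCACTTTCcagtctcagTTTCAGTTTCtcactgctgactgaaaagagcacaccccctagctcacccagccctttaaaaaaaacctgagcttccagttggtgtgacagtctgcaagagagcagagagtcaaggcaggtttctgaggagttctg
Bst2: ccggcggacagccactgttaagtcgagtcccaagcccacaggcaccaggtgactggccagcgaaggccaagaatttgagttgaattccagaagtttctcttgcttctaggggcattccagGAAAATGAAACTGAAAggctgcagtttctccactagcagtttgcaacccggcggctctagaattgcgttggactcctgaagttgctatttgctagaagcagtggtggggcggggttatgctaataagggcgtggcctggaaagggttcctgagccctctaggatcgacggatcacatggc
Gbp2: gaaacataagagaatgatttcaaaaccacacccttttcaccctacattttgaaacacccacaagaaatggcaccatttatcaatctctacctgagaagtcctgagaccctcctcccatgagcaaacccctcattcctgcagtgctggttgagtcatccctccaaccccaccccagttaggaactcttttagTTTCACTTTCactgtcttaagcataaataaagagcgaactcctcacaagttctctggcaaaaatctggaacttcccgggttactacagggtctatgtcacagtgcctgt

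Class II molecules, which show peptides on antigen-presenting cells, and markers of leukocytes were high in particular old arrays. The class II chain *H2-Aa* measured 5.94, 6.96 and 7.95 in young and 9.75, 7.27 and 8.84 in old hearts (1.67 log2, adjusted p 0.0047), with overlap between the groups. Its other expressed probe sets differed by 0.29 and 0.00. *Cd74*, the invariant chain, rose by 0.87, also with overlap. *Ptprc*, the pan-leukocyte antigen CD45, measured 4.15, 5.65 and 4.87 in young and 7.25, 6.07 and 7.35 in old hearts (2.00 log2, SE 0.32, adjusted p 0.00029) without overlap. The immunoglobulin heavy chain *Ighm* measured 5.75, 5.17 and 6.28 in young and 10.16, 5.80 and 8.24 in old hearts. Its other expressed probe sets differed by 0.01 and 1.52. Of 18 lymphocyte markers on the array 4 were expressed, and the T cell receptor chains *Cd3e*, *Cd3g* and *Cd3d* and the B cell genes *Cd79a* and *Ms4a1* had means under 5 in both groups. Of these, *Ms4a1* (CD20) measured 2.54, 2.68 and 2.47 in young and 4.64, 2.80 and 6.71 in old hearts (2.15 log2, adjusted p 0.0023), so that single old arrays exceeded the limit. The mean level of the 18 markers ranged from 3.81 to 3.99 in young and from 3.86 to 4.95 in old arrays, with old female highest.

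Of 16 expressed macrophage and monocyte markers 1 rose, in the stricter fit as well, against 7.87% of all expressed genes. It was *Cd14*, a co-receptor for bacterial lipopolysaccharide, which rose by 1.19 log2 (SE 0.18, adjusted p 0.00015) from 5.19, 4.54 and 4.47 to 5.86, 6.32 and 5.59. Its young mean was 4.73, so that it counted as expressed only through old hearts. The macrophage antigen *Emr1* measured 6.80, 7.12 and 6.99 in young and 6.34, 6.61 and 6.39 in old hearts (-0.52, adjusted p 0.054). The list's median was 0.22, close to the shift of all genes. Both expressed granulocyte markers rose, and both had a young mean under 5. *S100a9*, a calcium-binding protein of neutrophils, rose from 3.21, 3.37 and 3.37 to 4.03, 5.68 and 6.95 (2.24 log2, adjusted p 0.0040) and its partner *S100a8* from 3.04, 2.97 and 3.60 to 3.42, 5.23 and 6.81 (1.95, adjusted p 0.022). The other 6 granulocyte markers, *Ngp*, *Camp*, *Ltf*, *Cxcr2*, *Mpo* and *Elane*, had means under 5.

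Of 13 expressed chemokine genes and receptors 5 were consistently higher and 4 rose, 1 of them in the stricter fit, and the median was 0.22. Of all expressed genes 10.8% were consistently higher and 7.87% rose. Among the 4, *Ccl8* and *Ccl2* had young means of 4.36 and 4.45, so that they counted as expressed only because they were high in old hearts. *Ccl8*, a chemoattractant for monocytes and other leukocytes, rose from 4.36, 4.15 and 4.56 to 6.72, 4.97 and 7.71 (2.11 log2, SE 0.32, adjusted p 0.00015). *Cxcl12*, which stromal and endothelial cells make, rose by 1.17 (adjusted p 0.019), and its other expressed probe set differed by 0.00. *Cxcl1* and *Ccl2* rose by 1.6 and 0.86 (adjusted p 0.043 and 0.0093) and were highest in the old male array. The complement protease *C1s1* measured 6.70, 5.91 and 5.85 in young and 8.21, 7.60 and 6.94 in old hearts (1.43 log2, SE 0.21, adjusted p 0.00011), and the central component *C3* rose by 1.05 (adjusted p 0.025). These were the 2 of 12 expressed complement genes that rose, 1 of them in the stricter fit, and 1 was consistently higher. The list's median was 0.18, with 8 genes higher and 4 lower in mean. The lowest was the protease *Cfd*, also an adipocyte marker, with 9.19, 6.19 and 7.20 in young and 7.93, 5.29 and 6.05 in old hearts (-1.11 log2). Without the old female array the list's median was -0.13, and 1 complement gene rose and 2 fell.

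Immediate early genes had the highest median of the lists with more than 10 expressed members, 0.98 log2 over 28 genes, and 15 of them were consistently higher. They encode transcription factors and feedback regulators induced by growth factors, stretch, ischaemia and stress. In the all-array fit 9 rose and 1, *Nr4a3*, fell, and 4 rose in the stricter fit. Of all expressed genes 10.8% were consistently higher, 7.87% rose and 3.47% fell. Members such as *Egr2* and *Egr3*, which rose, and *Junb*, which was consistently higher, had young means of 2.76, 4.19 and 4.67. They counted as expressed only because they were high in old hearts. The old arrays were unlike each other. Relative to the young mean the median member lay at 1.44 in the old male and 1.06 in the old mixed array, but at 0.40 in the old female array, and the young arrays lay between -0.11 and 0.15. Without the old male array 3 of the 28 rose and without the old mixed array 5 rose, and 14 and 15 were consistently higher.

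*Egr3* measured 3.60, 4.92 and 4.05 in young and 3.71, 9.71 and 8.78 in old hearts (3.21 log2, SE 0.77, adjusted p 0.011). The old female array lay among the young arrays, and the other old arrays lay more than 3 log2 above them. By another expressed probe set *Egr3* differed by -0.18. *Egr2* measured 2.84, 2.85 and 2.61 in young and 3.15, 7.76 and 5.73 in old hearts (2.78 log2, SE 0.62, adjusted p 0.0058), and *Nr4a1*, an orphan nuclear receptor, went from 6.73, 5.99 and 6.48 to 7.22, 9.70 and 9.04 (2.25 log2, SE 0.49, adjusted p 0.0045). *Egr1* with 8.74, 8.22 and 8.19 in young and 9.02, 11.37 and 10.47 in old hearts was consistent but did not pass the test (1.90 log2, SE 0.78, adjusted p 0.13). *Fosl2*, an AP-1 subunit, was the member with the lowest adjusted p. It measured 5.73, 5.72 and 6.10 in young and 6.79, 8.52 and 8.16 in old hearts (1.97 log2, SE 0.28, adjusted p 5.8e-05), so that here the female array was higher as well. *Klf2*, a factor induced by blood flow in endothelium, rose by 1.09 (adjusted p 0.013) with 9.23, 9.47 and 9.31 in the old arrays, which lay close together.

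**Figure D2:**
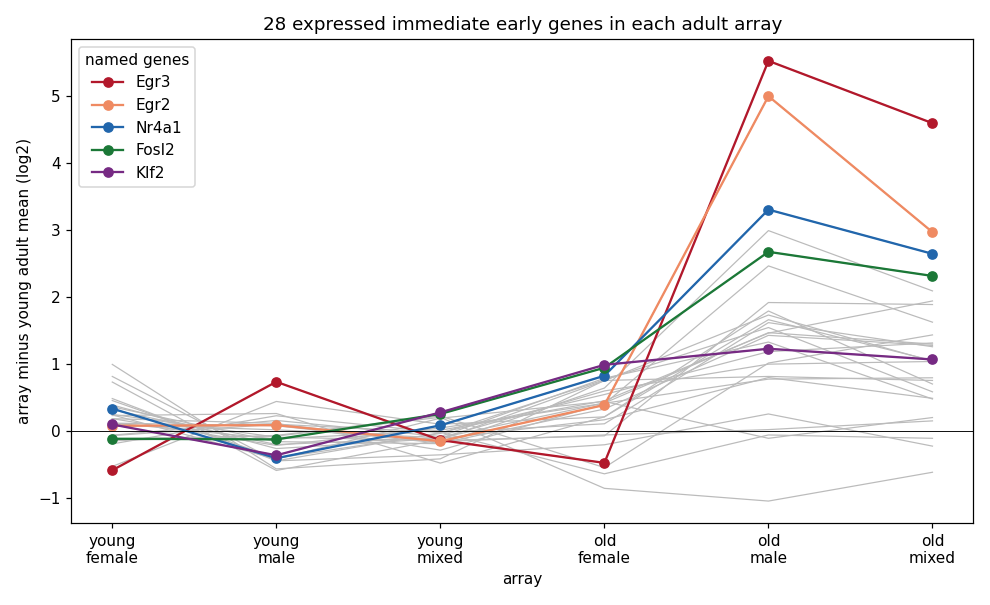
Each line joins the values of 1 of 28 expressed immediate early genes over the 6 adult arrays (x axis), as the difference from that gene's young adult mean (y axis, log2); the order of arrays has no meaning. Grey lines are all members and coloured lines 5 named genes; *Egr3* reaches 9.71 and 8.78 (RMA signal) in the old male and mixed arrays and 3.71 in the old female array.

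The promoters of *Egr2* and *Btg2* are given because they hold binding motifs for the factors that switch on immediate early genes. The CArG box, which serum response factor binds, was found in 2 of 23 expressed members with a promoter (8.70%), *Egr2* and *Zfp36*, against 1.81% of all genes. The cyclic AMP response element TGACGTCA was found in 3 of 23 (13.0%), *Btg2*, *Dusp1* and *Maff*, against 2.03%. Both motifs are counted on either strand, and TGACGTCA reads alike on both. Capitals mark the CArG box of *Egr2* (chr10:67537619-67537918, + strand, 1 of several annotated starts) 72 bases before the start and the element of *Btg2* (chr1:134079106-134079405, - strand), an antiproliferative gene, 166 bases before it. *Btg2* was consistently higher, at 8.16, 8.70 and 7.85 in old against 7.31, 7.53 and 7.29 in young hearts (0.86 log2, adjusted p 0.22). *Srf* itself measured 5.83, 5.65 and 5.65 in young and 5.85, 7.39 and 6.66 in old hearts (0.92, adjusted p 0.029).
Egr2: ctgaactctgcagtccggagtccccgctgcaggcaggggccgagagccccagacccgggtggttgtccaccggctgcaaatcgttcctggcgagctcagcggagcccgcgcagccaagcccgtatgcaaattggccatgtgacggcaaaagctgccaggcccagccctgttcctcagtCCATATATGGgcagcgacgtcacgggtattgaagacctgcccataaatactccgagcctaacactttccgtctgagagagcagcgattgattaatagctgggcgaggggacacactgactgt
Btg2: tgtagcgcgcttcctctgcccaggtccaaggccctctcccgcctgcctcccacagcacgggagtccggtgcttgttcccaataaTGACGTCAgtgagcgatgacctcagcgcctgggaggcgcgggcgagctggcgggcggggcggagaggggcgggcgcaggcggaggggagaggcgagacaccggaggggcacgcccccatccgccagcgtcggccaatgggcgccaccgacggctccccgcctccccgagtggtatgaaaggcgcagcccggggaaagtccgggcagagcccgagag

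The glucocorticoid target list lay at 0.48, 0.94 and 0.39 above the young mean in the old female, male and mixed arrays. Of 13 expressed glucocorticoid targets 5 rose and 1 fell, 1 of them in the stricter fit, with a median of 0.55. Without the young male, young mixed, old male or old mixed array 1 rose. Of all expressed genes 7.87% rose and 3.47% fell. *Errfi1*, an inhibitor of the EGF receptor, rose from 7.55, 5.99 and 6.52 to 8.0, 10.44 and 9.40 (2.60 log2, SE 0.40, adjusted p 0.0002). *Ddit4*, an inhibitor of the mTOR pathway, rose by 1.02, and *Zbtb16* fell by 1.27, while its other expressed probe sets differed by 0.07 and 0.46. The endothelial regulator *Apold1*, which is not on this list, rose from 5.16, 4.55 and 5.68 to 5.76, 8.80 and 9.11 (2.76 log2, adjusted p 0.00039). Of 16 expressed matrix proteases and inhibitors 3 rose in limma's all-array fit and 0 fell (1 at an unadjusted p under 0.05), and 3 rose in the stricter fit. Of these *Plat*, tissue plasminogen activator, rose by 1.09 (adjusted p 0.0016) without overlap. *Adamts1*, a protease that cuts proteoglycans, rose from 6.85, 5.78 and 6.82 to 7.22, 8.39 and 8.81 (1.66 log2, adjusted p 0.0040). The old female array was the lowest old array of each gene named in this paragraph except *Zbtb16*, of which it was the highest.

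Endothelial markers were higher in mean in all 13 of 13 members, with a median of 0.56. Endothelial cells line vessels and are the most numerous cells of the heart. In the all-array fit 5 rose, against 7.87% of all expressed genes. In the stricter fit 0 passed, where 6 had an unadjusted p under 0.05. *Pecam1*, the adhesion molecule CD31, rose from 5.95, 5.73 and 5.32 to 6.45, 6.56 and 7.54 (1.19 log2, adjusted p 0.014). *Kdr* and *Flt1*, the receptors for vascular endothelial growth factor, rose by 0.81 each (adjusted p 0.0072 and 0.019). The list lay at 0.34, 0.45 and 0.89 above the young mean in the old female, male and mixed arrays. Without the mixed array the median was 0.41 and 0 members passed the all-array test.

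TGF-beta and BMP signalling steers fibrosis and vessel quiescence. Of its 17 expressed genes 5 rose, against 7.87% of all expressed genes. In the stricter fit 0 rose, where 8 had an unadjusted p under 0.05, and the median was 0.49. *Smad6* and *Smad7*, the inhibitory SMADs that BMP and TGF-beta induce, rose by 1.06 and 0.79 (adjusted p 0.013 and 0.0091). The receptor *Bmpr2* rose from 8.96, 8.96 and 8.66 to 9.34, 9.53 and 9.79 (0.69, adjusted p 0.016), and the ligand *Bmp6* by 0.78 (adjusted p 0.021). *Gdf15*, a stress-induced ligand of the family and 1 of the 5 that rose, measured 4.28, 4.55 and 3.85 in young and 4.41, 7.38 and 4.99 in old hearts. Its young mean was 4.23, so that it counted as expressed only because it was high in old hearts. Without the old male array its difference was 0.47 in place of 1.37.

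Collagen genes went the other way. Of 16 expressed collagen genes 3 fell and 0 rose (1 at an unadjusted p under 0.05), 2 fell in the stricter fit, 12 had a lower mean, and the median was -0.34, although expressed genes as a whole lay at 0.14. Of all expressed genes 3.47% fell, and 0.773% fell in the stricter fit. *Col1a1*, a chain of the main fibrillar collagen of scar and interstitium, measured 7.10, 6.36 and 6.63 in young and 5.26, 5.38 and 4.87 in old hearts (-1.53 log2, SE 0.21, adjusted p 3.7e-05), and its other expressed probe set differed by -0.70. *Col3a1*, the collagen of pliable tissue, measured 11.65, 10.92 and 11.09 in young and 10.61, 10.45 and 9.19 in old hearts (-1.13 log2, SE 0.24, adjusted p 0.0033). All old arrays lay below all young arrays for both. Of the matricellular genes, *Mfap4*, a microfibril protein, fell by 0.88 on the log2 scale (adjusted p 0.029), and *Thbs1*, which activates TGF-beta, rose by 1.21 (adjusted p 0.034) but by 0.52 without the old male array. *Fbn2*, a fibrillin of developing elastic fibres, fell from 5.95, 4.38 and 5.04 to 3.26, 4.06 and 3.20 (-1.61 log2, adjusted p 0.00013), and *Itga8*, an integrin of mesenchymal cells, fell from 8.69, 8.09 and 8.26 to 8.07, 6.73 and 5.42 (-1.61, adjusted p 0.016).

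Fibroblast and cartilage markers were lowest in the old mixed array. The 12 fibroblast markers lay at 0.04, -0.20 and -1.04 relative to the young mean in the old female, male and mixed arrays, and their mean level ranged from 9.0 to 9.59 in young and from 8.18 to 9.19 in old arrays. Without the mixed array the list's median was 0.03 in place of -0.32, and the 2 collagens among its members, *Col1a1* and *Col3a1*, were then still consistently lower. All 5 expressed cartilage and bone markers had a lower mean in old hearts, and 3 fell, *Chad*, *Fmod* and *Sost*. *Chad*, *Sost* and *Cilp2* had an old mean under 5, so that they counted as expressed only because they were high in young hearts. Of all expressed genes 3.47% fell. Fibromodulin, *Fmod*, a proteoglycan of tendon and valves, measured 10.11, 9.25 and 9.17 in young and 9.31, 7.99 and 6.30 in old hearts (-1.64 log2, adjusted p 0.0058). *Sost*, sclerostin, which bone cells secrete, fell by 0.76 on the log2 scale (adjusted p 0.043). The Wnt antagonist *Wif1*, on the valve list, measured 8.92, 7.21 and 7.37 in young and 8.08, 5.81 and 4.88 in old hearts (-1.58, adjusted p 0.049). The part of the fibroblast and cartilage markers in the lower collagen values was not tested.

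Of 11 expressed mural cell markers 5 were consistently lower and 4 fell, 1 in the stricter fit, while 1, *Des*, was consistently higher (0.76 log2) and 0 rose in limma's all-array fit (2 higher at an unadjusted p under 0.05). The list's median was -0.03, with 5 markers higher and 6 lower in mean, and the markers that fell were contractile genes. Of all expressed genes 3.86% were consistently lower and 3.47% fell. The leiomodin *Lmod1* measured 5.99, 5.85 and 6.46 in young and 5.22, 4.80 and 5.06 in old hearts (-1.07 log2, SE 0.20, adjusted p 0.0016). *Myh11*, the smooth muscle myosin heavy chain, went from 8.56, 8.55 and 8.50 to 7.87, 7.29 and 7.45 (-1.0, adjusted p 0.016). *Acta2* and calponin, *Cnn1*, fell by 0.67 and 1.28 on the log2 scale (adjusted p 0.014 and 0.023). *Cnn1* had an old mean of 4.31, so that it counted as expressed only because it was high in young hearts. *Tagln* with 9.30, 8.93 and 8.86 in young and 8.65, 8.18 and 7.53 in old hearts was consistent and did not pass the test (adjusted p 0.091). These 5 genes were lower in every old array than in any young array. Without the old mixed array 1 member fell, and without the young female array 2.

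Of 23 expressed sarcomere and Z-disc genes 2 rose and 1 fell, near the background of 7.87% and 3.47%, with 0 and 1 in the stricter fit, and the median was 0.22. Of 13 expressed natriuretic peptide and fetal-type stress genes 3 rose, 1 in the stricter fit, and 0 were consistent, with a median of 0.31. *Myh7*, the slow myosin heavy chain that returns in a strained mouse heart, rose from 11.05, 12.11 and 11.39 to 11.70, 13.40 and 12.57 (1.04 log2, SE 0.24, adjusted p 0.0080), and it was higher in all 3 same-label pairs although the groups overlapped. *Ankrd1*, a stretch-responsive Z-disc protein, rose by 0.75 (adjusted p 0.034). *Npr3*, the clearance receptor for natriuretic peptides, rose by 1.32 (adjusted p 0.044), with 8.37, 7.02 and 5.74 in the old arrays. *Nppb* measured 9.40, 10.68 and 10.07 in young and 10.76, 12.42 and 10.07 in old hearts, and *Nppa* 11.68, 12.33 and 12.05 and then 12.97, 13.41 and 11.98. For both peptides the old mixed array lay within the range of the young arrays, and neither passed the test. *Myot*, a Z-disc protein, rose by 1.13 (adjusted p 0.020), with 8.09 in the old male array against 5.76 and 5.97 in the other old arrays.

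Among channels and receptors, *Kcnd2*, a subunit of the transient outward potassium current, fell from 6.05, 5.73 and 5.93 to 5.29, 5.25 and 4.32 (-0.95 log2, SE 0.19, adjusted p 0.0024), and its other expressed probe set differed by -0.96. The alpha-adrenergic receptor *Adra1a* fell by 0.78 on the log2 scale (adjusted p 0.014) and *Erbb2*, the neuregulin co-receptor, by 0.47 (adjusted p 0.022). *Kcnd2*, *Adra1a* and *Erbb2* had old means under 5 (4.95, 4.92 and 4.92). They counted as expressed only because they were high in young hearts. The endothelin receptor *Ednrb* rose by 1.15 (adjusted p 0.015) and the insulin receptor *Insr* by 0.56 (adjusted p 0.010). Of 15 expressed calcium handling genes 1 rose, *Ryr2*, the calcium release channel of the sarcoplasmic reticulum (7.95, 7.59 and 7.88 in young and 8.64, 8.78 and 7.98 in old hearts, adjusted p 0.028). This count was near the 7.87% of all expressed genes, and 0 rose in the stricter fit.

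No gene of mitochondrial energy metabolism passed the test. Of 41 expressed respiratory chain genes, 27 of fatty acid uptake and oxidation and 21 of the tricarboxylic acid cycle, limma called 0 in the all-array fit and 0 in the 6-array fit, with 2, 4 and 3 at an unadjusted p under 0.05 in the former. The medians were 0.03, -0.04 and 0.21. Each of these lists was higher in the old male array, by 0.31, 0.42 and 0.73 at the median, and near or below the young mean in the others. Cytosolic ribosomal proteins differed by 0.10 at the median of 23 genes, between -0.18 and 0.33, and 0 were called (0 at an unadjusted p under 0.05). *Ppp1r3c*, which brings protein phosphatase to glycogen, was the only glycolysis or glycogen gene to rise among 25, from 7.09, 7.71 and 6.98 to 8.13, 9.46 and 8.03 (1.28 log2, SE 0.27, adjusted p 0.0037). *Esrrb*, an orphan receptor related to the estrogen receptor, fell by 0.55 on the log2 scale (adjusted p 0.047).

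Regulators tied to ageing and growth control gave single changes. *Sirt1*, a deacetylase that links nutrient state to chromatin, rose from 5.69, 4.97 and 4.88 to 6.28, 6.57 and 6.13 (1.15 log2, SE 0.23, adjusted p 0.0020). The forkhead factor *Foxo4* and *Rictor*, a subunit of mTOR complex 2, rose by 0.88 each (adjusted p 0.0015 and 0.041), and the other 15 of 18 expressed genes of this list did not pass. Of all expressed genes 7.87% rose, and in the stricter fit 2 genes of this list rose. *Foxo4* had a young mean of 4.62 and counted as expressed only through old hearts. *Ndn*, necdin, an imprinted growth suppressor, fell from 9.27, 8.20 and 9.06 to 7.77, 7.32 and 7.07 (-1.46 log2, SE 0.21, adjusted p 7.2e-05), and its 4 other expressed probe sets differed by -0.88 to -1.43. The imprinted noncoding RNA *Meg3* fell by 0.63 on the log2 scale (adjusted p 0.045). *Hopx*, a homeodomain cofactor of cardiomyocytes, fell from 9.30, 9.15 and 9.69 to 8.54, 7.67 and 8.33 (-1.20, adjusted p 0.037), and *Gata6* fell by 0.56 (adjusted p 0.020). The other expressed *Gata6* probe sets differed by 0.10 and -0.06. Of 8 expressed proliferation genes 0 were called in either limma fit (1 at an unadjusted p under 0.05 in the all-array fit).

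Of 25 expressed antioxidant and metallothionein genes 4 rose and 0 fell (0 at an unadjusted p under 0.05), and 0 passed the stricter fit, where 6 had an unadjusted p under 0.05. Of all expressed genes 7.87% rose, and the lists of this paragraph are to be read against this share. The list's median was 0.26 and after centring 0.09, and its limma calls were lost without the young male, young mixed or old male array. *Gpx3*, a secreted glutathione peroxidase, measured 9.17, 9.29 and 9.03 in young and 10.26, 10.04 and 9.52 in old hearts (0.77 log2, adjusted p 0.039). *Srxn1*, which repairs peroxiredoxins, rose from 4.98, 4.56 and 4.57 to 5.31, 5.54 and 5.20 (0.64, adjusted p 0.012). Its young mean was 4.7, so that it counted as expressed only through old hearts. Both genes were higher in all old arrays than in any young array, whereas metallothionein *Mt2* with 8.09, 10.10 and 8.94 in old hearts equalled the young level in the female array. Of 14 expressed clock genes 3 rose, 1 in the stricter fit: *Bhlhe40*, a repressor in the clock loop, went from 7.13, 6.93 and 6.89 to 7.47, 8.75 and 9.01 (1.43 log2, adjusted p 0.0029), and *Per1* and *Ciart* rose by 0.90 and 0.54 (adjusted p 0.046 and 0.045). *Ciart* had a young mean of 4.85 and counted as expressed only through old hearts. The hour of sampling is not given in the labels. Of 19 autophagy and lysosome genes *Bnip3* and *Gabarapl1* rose, by 0.94 and 0.67 (adjusted p 0.049 and 0.027), near the 7.87% of all expressed genes. Of 25 chaperone genes *Hspa4l* fell by its brightest probe set (-0.74, adjusted p 0.023) while its other expressed probe sets differed by 0.97 and 0.70. This too was near the background, of which 3.47% fell. The stricter fit called 0 members of either list.

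**Figure D3:**
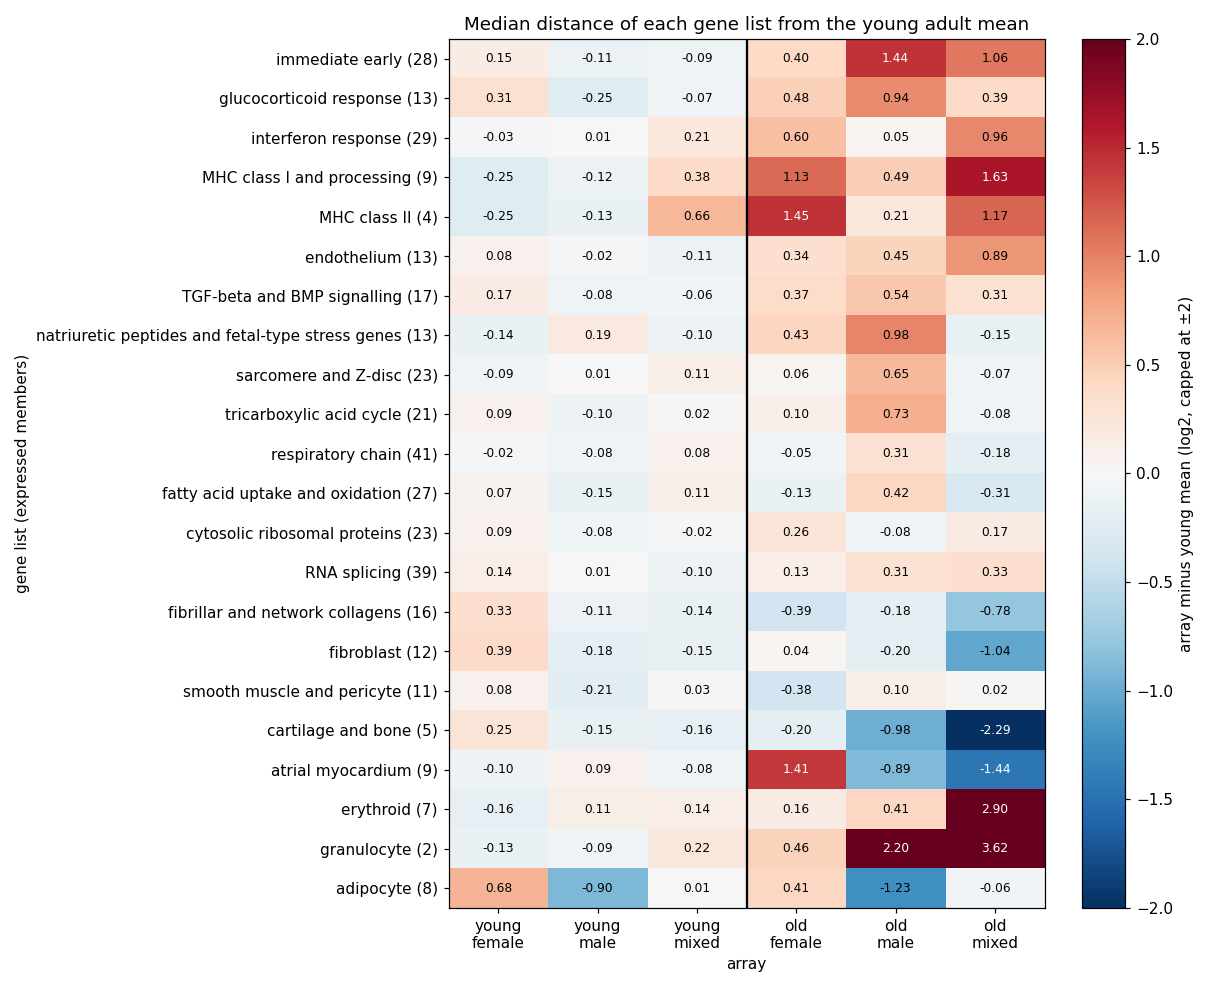
Rows are gene lists with the number of expressed members, columns the 6 adult arrays, and each cell the median over members of the array's value minus the gene's young adult mean (log2; colours capped at ±2). The old arrays differ from each other in several rows, as for atrial genes at 1.41, -0.89 and -1.44 and erythroid genes at 0.16, 0.41 and 2.90.

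Many genes that were lower by their brightest probe set were higher by another. Of the 380 consistently lower genes 166 had a further expressed probe set, and in 124 of these (74.7%) at least 1 further probe set had the opposite sign. In 37 of them (22.3%) it was itself consistently higher. For the 1063 consistently higher genes, 350 had a further expressed probe set, of which 102 (29.1%) had the opposite sign in at least 1 and 17 (4.86%) had it consistently lower. After centring the arrays the shares with a consistent opposite were 6.71% for lower and 7.48% for higher genes, with 21 lower and 11 higher genes. The larger share of a consistent opposite among lower genes was thus seen on the deposited scale, on which expressed genes lie 0.14 higher at the median, and not after centring. The share with any opposite sign was after centring 53.4% for lower and 35.4% for higher genes. Without the old male array 29 lower genes (13.5%) had a consistent opposite, and without the old mixed array 57 (29.8%).

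Among the 37 genes were splicing factors and cofactors (*Srrm1*, *Srrm2*, *Son*, *Pnisr*, *Rbm25*, *Snrnp48*, *Rsrc2*, *Scaf11*) and chromatin proteins (*Atrx*, *Kmt2c*, *Kdm5a*, *Arid4a*, *Baz2b*, *Rsf1*). *Rbm25*, a splicing regulator, measured 8.56, 9.41 and 9.30 in young and 8.03, 7.90 and 7.93 in old hearts by its brightest probe set (-1.14 log2, SE 0.21, adjusted p 0.0011). By another probe set it measured 5.07, 4.81 and 4.22 in young and 5.48, 6.24 and 5.85 in old hearts (1.16 log2, SE 0.25, adjusted p 0.0042). Both directions passed the test, on the same values by which the 37 genes were chosen. That choice required that the groups not overlap in either direction. *Pnisr*, a protein of splicing speckles, differed by -1.21 by its brightest probe set (adjusted p 0.018) and by 1.6 by another (adjusted p 0.00091). The same held for *Ankrd11*, a chromatin regulator, with -1.03 and 1.36 (adjusted p 0.021 and 0.00047), and for *Slk*, a kinase, with -1.75 and 0.90 (adjusted p 4.9e-05 and 0.024). Probe sets of 1 gene may read different ends or isoforms of its transcript, and which of them a probe set reads was not analysed here. For these genes no direction is given for the gene as a whole. In the list of 39 expressed splicing genes, 4 rose and 5 fell by the brightest probe set, with 1 and 2 in the stricter fit. Of all expressed genes 7.87% rose and 3.47% fell. The serine-arginine factors *Srsf5* and *Srsf7* rose by 0.99 and 0.61 (adjusted p 0.0022 and 0.020).

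**Figure D4:**
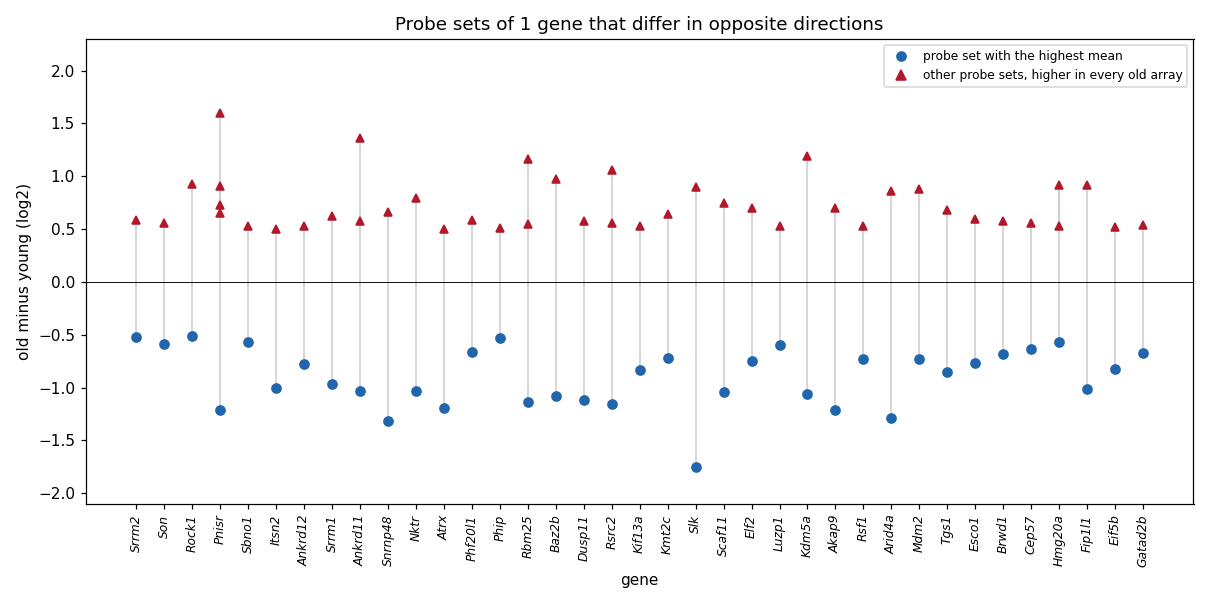
Old minus young difference (y axis, log2) of the probe sets of 37 genes (x axis) that were consistently lower by the probe set with the highest mean (circles) and consistently higher by another (triangles). Grey lines join probe sets of 1 gene; the widest gaps include *Pnisr* from -1.21 to 1.6 and *Slk* from -1.75 to 0.90.

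Single arrays carried part of the differences. Of 3848 expressed probe sets with a difference of at least 0.5 log2, 461 (12.0%) fell below 0.5 of their size or changed sign without 1 array. The old male array carried 154 and the old mixed array 128, against 39 for the old female array, 64 for young mixed, 52 for young male and 24 for young female. Differences that rested on the old male array were mostly higher (131 of 154), as were those that rested on any 1 array (358 of 461). *Abra*, an actin-binding activator of serum response factor, measured 8.61 there and at most 6.16 in the other 5 arrays, and its difference of 1.48 became 0.31 without that array.

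The old mixed array held red and white blood cell transcripts. *Ahsp*, the alpha haemoglobin chaperone, measured 9.87 in it and between 4.5 and 5.40 in the other 5 arrays, and the red cell anion exchanger *Slc4a1* measured 7.93 against 4.02 to 4.58. The 10 erythroid markers averaged 4.91 to 5.30 in young arrays and 5.32, 5.26 and 7.23 in old arrays. Histidine decarboxylase, *Hdc*, of mast cells and basophils, measured 7.65 in the mixed array and at most 4.59 elsewhere. Without this array the erythroid list's median was 0.25 in place of 1.18. The higher levels of class I, interferon and endothelial genes in the same array stand beside these values, and the part of blood in them was not tested.

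Atrial markers differed among the old arrays. The atrial light chains *Myl7* and *Myl4* measured 11.06, 11.13 and 10.94 and 10.36, 10.81 and 10.33 in young hearts, against 12.73, 9.46 and 9.53 and 11.91, 8.91 and 9.07 in old hearts. Sarcolipin, *Sln*, the atrial inhibitor of the calcium pump, measured 9.41, 9.83 and 9.50 in young and 11.43, 8.02 and 7.30 in old hearts. The old female array was thus above, and the other old arrays below, all young arrays in each of the 3 genes. *Nppa*, on the same list, was instead highest in the old male array, as given above. Of 9 expressed atrial markers 0 were called in either limma fit (0 at an unadjusted p under 0.05 in the all-array fit), and the mean level of the 13 on the array ranged from 6.97 to 7.12 in young and from 6.22 to 8.29 in old arrays. *Npr3* was carried by the old female array (1.32, and 0.66 without it), as were *H19* and the imprinted zinc finger gene *Plagl1*, of which the latter changed from 0.75 to -0.29 without it. Complement *C3*, *Ighm* and *H2-Aa* were also highest in this array.

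**Figure D5:**
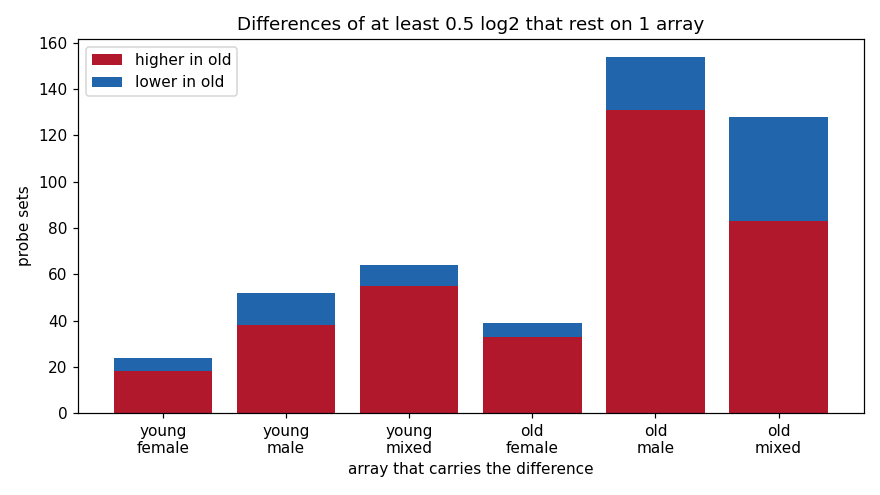
Number of expressed probe sets (y axis, from 0) whose old minus young difference of at least 0.5 log2 rested on the array named on the x axis, split by the direction of the difference. The old male (154) and old mixed (128) arrays carry the most of the 461, and the young female array 24 the fewest.

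Genes that the study names for old hearts were read in the same way, as old minus young. The study names *Adamts9* for old against young hearts. It names *Gsn* and *Nr4a* members for old male against old female hearts, a contrast that was not tested here. *Adamts9*, a metalloproteinase, has 3 expressed probe sets: the brightest measured 5.76, 6.55 and 6.67 in young and 6.14, 7.43 and 7.65 in old hearts (0.75 log2, adjusted p 0.079), and another measured 2.78, 4.08 and 2.44 and then 4.37, 7.86 and 8.85 (3.93 log2, SE 0.58, adjusted p 0.00011). The size of its difference thus depended on the probe set, and the old female array was the lowest of the old arrays in both. Gelsolin, *Gsn*, an actin-severing protein, differed by -0.19 by its brightest probe set (adjusted p 0.65). Another *Gsn* probe set, 1456312_x_at, measured 12.05, 12.10 and 11.97 in young and 5.44, 12.48 and 12.40 in old hearts. Its value in the old female array lay more than 6 log2 below the other 5, while the other expressed *Gsn* probe sets measured 12.57, 12.93 and 12.80 in that array. *Nr4a3* fell by its brightest probe set (-0.85, adjusted p 0.0080) and rose by another, from 4.17, 4.75 and 4.38 to 4.73, 7.73 and 6.84 (2.00 log2, adjusted p 0.0011).

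Array controls were not alike in the groups. Hybridization controls, bacterial transcripts added in equal amounts after labelling, averaged 12.05, 12.43 and 12.03 in young and 11.38, 11.16 and 11.56 in old arrays, without overlap, and spiked poly-A controls averaged 9.17, 8.98 and 8.52 and then 8.35, 7.78 and 7.29. The difference between 3' and 5' probe sets of beta-actin, a sign of RNA integrity, ranged from 2.74 to 2.91 in young and from 2.69 to 3.02 in old arrays. That of *Gapdh* was 1.87, 1.39 and 2.25 in young and 2.06, 2.63 and 2.28 in old arrays, with old male highest, and that of the transferrin receptor 0.91, 0.83 and 0.54 and then 0.66, 0.56 and 0.44. For pyruvate carboxylase it was 2.29, 1.95 and 1.86 and then 1.72, 1.88 and 2.06. The part of these controls in the differences between the groups was not tested.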

How the data were processed

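Whole heart RNA was hybridized to Affymetrix mouse genome arrays. The authors normalized all 36 arrays together by robust multi-array average, and the deposited values are log2 intensities per probe set; per the labels, Affymetrix Expression Console and Partek 6.6 were used. Arrays were grouped by the stage label. Of 45101 probe sets, 6937 carry no gene ID; 18342 of 20701 gene IDs matched RefSeq (GRCm38.p6), from which the promoters come. Differences were computed with limma 3.58.1 in R 4.3.3, once on the 6 adult arrays with the sex label as a block and once on all arrays with 12 stage means, and with Benjamini-Hochberg adjustment. Standard errors and adjusted p-values in the text come from the all-array fit unless the 6-array fit is named. Fits were tested on simulated data. Gene lists (37) and marker lists (20) and all members were chosen with earlier results of these data known. Named genes (192) were the 10 highest and 10 lowest consistent genes, all genes called on the 6 arrays, genes past the methods' limits, up to 6 members of each list that were consistent or called, by size, genes the study names for old hearts and genes resting on 1 array. *Klf2*, *Ms4a1*, *Btg2*, the atrial genes, the 37 genes with opposed probe sets and some further list members were chosen after their values were seen. A few genes that the rule names are not reported here. Nothing in the sources used here says how many hearts an array pooled, so p-values measure the spread between these arrays only. RMA shares 1 distribution across arrays, which removes differences in total RNA. Alternatives were other scalings, filters, limits and fits, and each array left out.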

Additional observations from a re-analysis of the deposited data

Results flagged for a closer look

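*Cdkn1a*, which encodes the cell cycle inhibitor p21, differed in opposite directions in the sexes. It measured 7.69, 6.71 and 6.75 in the young female, male and mixed arrays and 7.10, 8.15 and 8.74 in the old ones. The male pair differed by 1.44 log2 and the female pair by -0.59, which is a gap of 2.03 log2 between the pairs. Each sex had 1 array per age, and the difference was not tested.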

How the results depend on the processing

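The 6-array fit called 5 probe sets with the sex label as a replicate block and 6 with no replicate block; same-label arrays of the 2 ages deviated together only weakly (r 0.089 for female, 0.007 for male and 0.037 for mixed). It called 9 on expressed probe sets only, 0 after repeated quantile normalization (5612 at an unadjusted p under 0.05), 57 after centring, 219 with trend and robust estimation, 3138 on all arrays and 3800 on all arrays with the replicate block. Leaving out arrays gave 0 to 227, with 0 without the young male array (4968 at an unadjusted p under 0.05). The all-array fit called 3138 probe sets, 572 with a variance factor for adult arrays, 3800 with the replicate block and 1889 to 4367 with arrays left out. Consistently higher probe sets numbered 1870, against 3011 at a limit of 0.25 log2, 270 at 1, 1076 after quantile normalization, 886 after centring, 1063 counted as genes and 1828 to 3013 with arrays left out. Consistently lower ones numbered 727, against 1241, 190, 1167, 1442 and 380 in the same order, 453 at an expression limit of 6, and 850 to 1160 with arrays left out. Differences resting on 1 array numbered 461, and 41 at a limit of 1. Of 192 named genes, 115 newly passed the threshold with all 36 arrays. No sign could change there, because both fits give the same difference between the 2 group means. Small differences changed sign: *Myl2* to -0.14 after centring and to -0.01 with array weights. With arrays left out, the difference ranged from -0.14 to 0.16 for *Myl2*, -2.53 to 2.57 for *Xist*, -0.68 to 0.29 for *Sftpb*, -0.08 to 0.64 for *Ckm*, -0.11 to 0.03 for *Rps20*, -0.04 to 1.61 for 2310002L09Rik and -0.29 to 1.54 for *Plagl1*. The causes were not tested.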
